A study of Mus musculus with 15 samples.

Results

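DNA methylation was compared between granulocyte-macrophage progenitors (GMP) of Idh2 R140Q mice and of wild type mice, with 2 libraries per genotype, which are 4 of the 15 libraries of the series. The libraries were chosen by their labelled genotype and cell type. Methylation was read by reduced representation bisulfite sequencing, in which DNA cut by a restriction enzyme is treated with bisulfite, so that unmethylated cytosines are converted and methylated ones are not. The wild type mice carried Mx1-cre and floxed Dnmt3a (Mx1-cre+;Dnmt3af/f), and the Idh2 R140Q mice carried floxed Dnmt3a and the mutant Idh2 without the Cre transgene (Mx1-cre-;Dnmt3af/f;Idh2 R140Q). Floxed Dnmt3a is therefore shared by both groups, and the presence of Mx1-cre, an interferon-inducible Cre, is confounded with the Idh2 genotype. Cre can remove floxed sequence once induced. Whether Dnmt3a was intact in the wild type libraries, which are named so after their labels, was not tested. All mice were of the C57BL/6 strain, and GMP were sorted from bone marrow as lineage-negative cells positive for cKit, CD34 and Cd16/32 and negative for Sca1. The sample titles of the wild type libraries also hold the term GFP and those of the Idh2 R140Q libraries the term M140, whose meaning the labels do not give. Replicates are labelled as biological, but no animals are named, and the sources used here give neither age nor sex.

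GMP give rise to neutrophils, monocytes and macrophages, while megakaryocyte-erythroid progenitors (MEP), sorted from the same genotypes, give rise to red cells and platelets. Idh2 encodes a mitochondrial isocitrate dehydrogenase. The R140Q form, found in human leukaemia, makes 2-hydroxyglutarate, which inhibits enzymes that depend on 2-oxoglutarate, among them the TET enzymes that oxidise 5-methylcytosine on the way to its removal. Bisulfite does not separate 5-methylcytosine from 5-hydroxymethylcytosine, so a methylation level here is the sum of both.

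Read counts summed over the cytosines of CpGs were 30751438 and 30931339 in the 2 wild type GMP libraries, and 22626291 and 19306705 in the Idh2 R140Q libraries. On the 19 autosomes, 288994 CpGs had at least 10 reads in all 4 libraries, with a median of 40 and 41 reads per CpG in wild type and 34 and 28 in Idh2 R140Q. These CpGs filled 35155 windows of 1 kb with at least 3 CpGs each, here called regions (median 4 CpGs). Duplicate reads cannot be recognised in these counts, so the depth overstates the number of molecules. Totals of a library or region also count a read at each CpG that it covers. Reads on the Y chromosome came to 56.0 and 57.5 per 1000000 autosomal reads in wild type GMP and to 199 and 266 in Idh2 R140Q GMP, while X reads were 2.23% and 2.23% of autosomal reads against 1.23% and 1.43%. The 2 genotypes therefore also differ in sex chromosome content, and genotype, sex chromosome content and Mx1-cre cannot be told apart within these 4 libraries. The share of unconverted cytosines in mitochondrial CpGs was 3.12% and 3.27% in wild type and 2.43% and 1.31% in Idh2 R140Q. Coverage of the Idh2 gene gave no check of the R140Q allele, since the counts carry no base calls.

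The sorted cell type was compared with promoter methylation of lineage markers. The 15 measured promoters of granulocyte and macrophage genes averaged 10.1% and 8.65% in wild type GMP against 11.9% and 11.3% in wild type MEP, and the 17 promoters of erythroid and megakaryocyte genes averaged 8.91% and 8.28% in GMP against 5.85% and 7.31% in MEP. In Idh2 R140Q the same averages were 12.3% and 14.8% in GMP against 17.3% and 16.6% in MEP for the granulocyte and macrophage list, and 7.50% and 8.13% against 4.36% and 3.32% for the erythroid and megakaryocyte list. In wild type these contrasts rest on 1 promoter of each list. The promoter of Emr1, which encodes a macrophage surface marker, stood at 32.7% and 35.9% in wild type GMP and 64.5% and 50.7% in wild type MEP, and that of Rhd, a blood group antigen gene of red cells, stood at 90.5% and 92.5% against 47.1% and 72.7%. Without Emr1 the 14 other promoters averaged 8.49% and 6.70% in wild type GMP against 8.14% and 8.46% in MEP, and without Rhd the 16 others averaged 3.81% and 3.02% against 3.27% and 3.22%, so the cell types overlapped in both lists. In Idh2 R140Q the values without these promoters did not overlap, at 8.30% and 10.6% in GMP against 11.8% and 11.4% in MEP, and at 2.98% and 3.21% against 2.57% and 2.13%. The promoters of Mpo and Elane, which encode granule proteins that define granulocytic cells, did not reach the required coverage. Fewer cells of a type and a lower level per cell cannot be told apart in these bulk libraries.

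The sequences below, from the mm9 reference on the plus strand, show regions with the largest differences among called regions whose libraries did not overlap between the groups, with the measured CpGs in capitals. The first 4 lie in regions that were higher in Idh2 R140Q and the next 2 in regions that were lower. They are chr10:83995841-83995948 in an intron near the start of Ckap4, chr12:12732075-12732103 in intergenic sequence nearest to Gm17337, chr17:88145599-88145632 in a coding exon of Kcnk12, chr2:27777634-27777789 overlapping a coding exon of Col5a1, chr3:151755783-151755896 in intergenic sequence past the 3′ end of Gipc2, and chr10:118066674-118066695 in intergenic sequence nearest to Ifng.
Ckap4: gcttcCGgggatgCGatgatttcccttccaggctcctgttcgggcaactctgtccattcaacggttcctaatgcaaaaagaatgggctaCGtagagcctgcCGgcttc
Gm17337: tttgtCGcCGctgcattcttgcCGgcagt
Kcnk12: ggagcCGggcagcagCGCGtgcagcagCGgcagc
Col5a1: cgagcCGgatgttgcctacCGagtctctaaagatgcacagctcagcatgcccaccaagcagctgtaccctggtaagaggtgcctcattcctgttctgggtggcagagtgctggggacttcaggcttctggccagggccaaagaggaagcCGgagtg
Gipc2: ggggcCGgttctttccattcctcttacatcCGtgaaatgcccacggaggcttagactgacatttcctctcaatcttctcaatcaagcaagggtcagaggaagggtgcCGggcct
Ifng: taaacCGgaccacCGCGctttc

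A further 3 sequences, printed because their genes are known for roles in early and myeloid progenitors and their descendants and chosen after their values were seen, are chr5:148200371-148200494 in an intron of Flt3, chr10:79345234-79345384 within Prtn3 and chr17:57498449-57498597 just downstream of the start of Emr1.
Flt3: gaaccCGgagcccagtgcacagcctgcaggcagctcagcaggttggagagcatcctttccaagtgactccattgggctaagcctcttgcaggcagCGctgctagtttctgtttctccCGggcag
Prtn3: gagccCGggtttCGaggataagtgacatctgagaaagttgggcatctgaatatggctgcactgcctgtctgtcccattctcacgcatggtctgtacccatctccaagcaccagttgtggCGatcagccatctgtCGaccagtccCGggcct
Emr1: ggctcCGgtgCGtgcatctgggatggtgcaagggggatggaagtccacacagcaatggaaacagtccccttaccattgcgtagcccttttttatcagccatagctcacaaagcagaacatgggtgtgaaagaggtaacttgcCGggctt

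Across all 288994 CpGs, weighted equally, the mean methylation level was 42.1% and 42.3% in the wild type GMP libraries and 43.5% and 44.3% in the Idh2 R140Q libraries. Both mutant libraries lay above both wild type libraries, by 1.68 points in the mean. With 2 libraries against 2 an exact two-sided permutation test cannot go below p = 0.333, which is the value it gave. The direction depended on the weighting. When all methylated reads were divided by all reads the levels were 56.1% and 56.8% against 49.9% and 57.4%, a difference of -2.795 points with overlapping groups. In that sum the 1265 CpGs with over 1000 reads held between 20.8% and 26.5% of the reads of a library, and without them the difference was -1.279 points.

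Of 3 classes of CpGs, the difference was largest at those of intermediate methylation. CpGs were classed by their mean level in the wild type MEP libraries, which are not part of the comparison. At the 38539 CpGs between 20% and 80%, the levels were 60.3% and 61.0% in wild type GMP and 64.6% and 68.2% in Idh2 R140Q GMP, 5.77 points higher in the mean. At the 143836 CpGs below 20%, they were 1.69% and 1.66% against 3.46% and 2.93%, with no overlap and a difference of 1.52 points. For the 102913 CpGs above 80% the levels were 92.1% and 92.5% against 91.7% and 93.6%, so the groups overlapped. The exact permutation p was 0.333 for both lower classes and 1 for the highest class. In MEP the same contrast gave 5.22 points in the intermediate class, 1.14 points below 20% and -0.876 points above 80%. The wild type MEP libraries set the classes and are the control of this contrast, so their noise enters both. These MEP values are a description and were not tested.

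**Figure D1:**
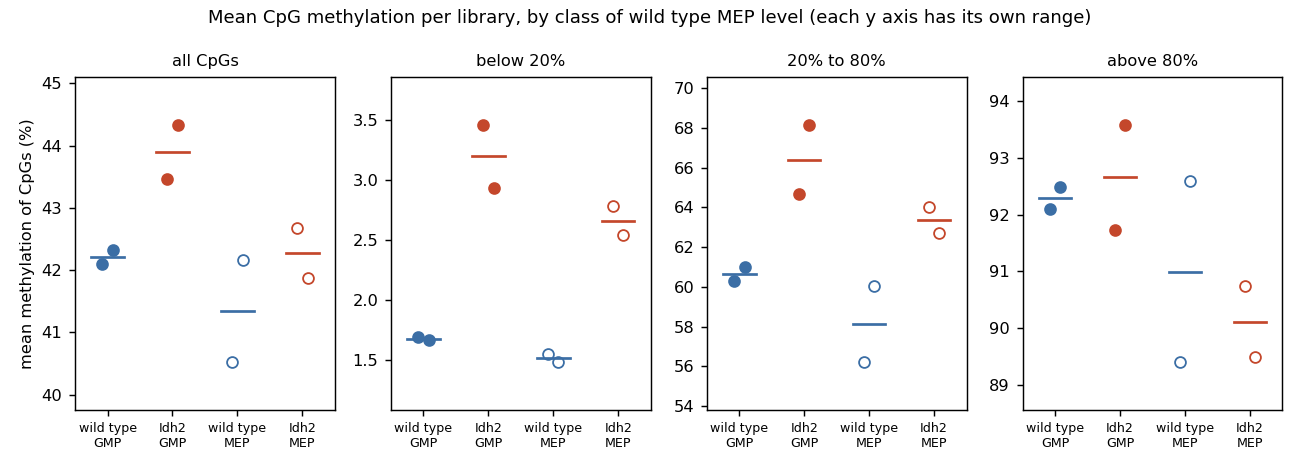
Mean CpG methylation (%, y axis, a separate range in each panel) of each library as a point and of each group as a line, for all CpGs and for CpGs classed by their wild type MEP level. Filled points are GMP and open points MEP. The Idh2 R140Q GMP libraries lie above both wild type GMP libraries in the panels for all CpGs, below 20% and 20% to 80%, and on both sides of them above 80%.

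Among the 35155 regions, methylation was more often higher than lower in Idh2 R140Q GMP. Both mutant libraries lay above both wild type libraries at 10016 regions (28.5%) and below both at 3282 (9.34%). Where the group means were also at least 10 points apart, the counts were 2281 higher (6.49%) and 613 lower (1.74%), and at 30 points or more they were 202 and 30. The spread between replicates was of the same order: the 2 wild type libraries were 10 or more points apart at 2258 regions and the 2 Idh2 R140Q libraries at 4396. The median absolute difference was 1.52 points between the wild type libraries, 2.42 points between the Idh2 R140Q libraries and 1.79 points between the group means. The measures are not alike. Replicate values compare single libraries, while those of the genotypes compare means of 2 libraries, which vary less, and the genotype counts also required no overlap.

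A quasi-binomial model of methylated against all reads, which takes the spread of each region from the replicates of all 7 groups, called 172 regions higher and 25 lower when an adjusted p under 0.05 was required together with 10 points between the group means. These were 0.489% and 0.0711% of the regions tested, or 0.560% for both directions. The median difference was 28.7 points among the called rises and -28.3 points among the called falls. The calls lay on all 19 autosomes, and 6 of the 197 had another called region within 10 kb. The number to be expected from the spacing of the tested regions was not worked out. This count rests on the model and on single libraries. limma and edgeR's quasi-likelihood test called 0 regions (4280 and 3149 at an unadjusted p under 0.05), as did the same model on the 4 libraries alone (3083). Without wild type library 1, wild type library 2 or Idh2 R140Q library 1 it called 3, 0 and 0, and without Idh2 R140Q library 2 it called 230.

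**Figure D2:**
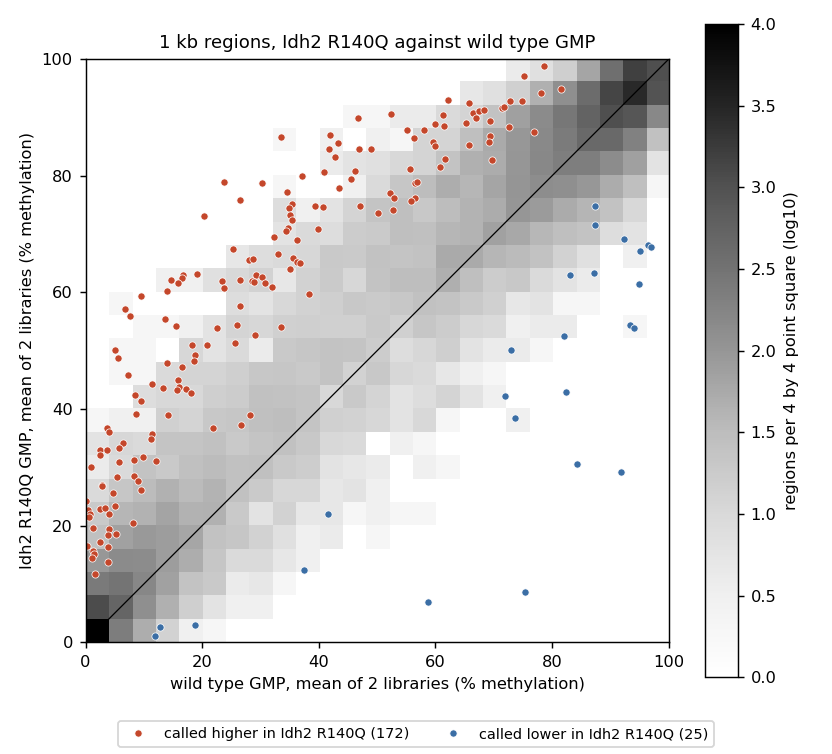
Mean methylation of each 1 kb region in wild type GMP (x axis, %) and Idh2 R140Q GMP (y axis, %), shown as the log10 number of regions per square, with called regions as points. The 172 called rises lie above the diagonal over nearly the whole range of wild type levels below 80%, and 15 of the 25 called falls start at 80% or more.

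Among these called regions without overlap, the largest rise lay in an intron of Ckap4, which encodes a membrane protein of the rough endoplasmic reticulum, 690 bp from the nearest annotated start site. Its 4 CpGs stood at 21.2% and 26.2% in wild type GMP and at 72.1% and 85.8% in Idh2 R140Q GMP, a difference of 55.3 points (adjusted p = 0.0278). Each of the 4 CpGs was higher in both mutant libraries than in both wild type libraries; the first of the printed sequence stood at 31.6% and 35.5% against 83.9% and 95.8%. The intergenic region 62693 bp from the start of Gm17337 stood at 40% and 27.2% against 88.6% and 84.6%. Its 3 CpGs fall within the 29 printed bases and had equal read numbers, 13 each in Idh2 R140Q library 2.

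Coding exons and promoters were among the other large rises. In a coding exon of Kcnk12, which encodes a tandem-pore potassium channel, the levels were 22.7% and 17.9% in wild type and 90.4% and 55.8% in Idh2 R140Q. In Col5a1, which encodes a chain of type V collagen, they were 7.82% and 5.58% against 40.5% and 73.9%. In both, the groups did not overlap but the 2 mutant libraries differed from each other by more than 30 points, and the Kcnk12 value of Idh2 R140Q library 2 rests on 13 reads per CpG. At the promoter of Slc5a5, the sodium-iodide symporter, the levels were 17.2% and 10.6% against 60.9% and 59.4%. A CpG-dense start site of Zfp316, a zinc finger gene, had 19 measured CpGs at 18.7% and 14.8% against 68.2% and 57.6%, a difference of 46.2 points (adjusted p = 0.0223); the outermost annotated start of the gene lies 14708 bp away. The Klra3 promoter stood at 29.9% and 23.2% against 74.5% and 77.3%. Klra3 encodes a natural killer cell receptor of a family of near-identical genes, so its reads may be shared with other members and its value is uncertain.

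The remaining regions of the 14 largest rises lay in introns, an exon and intergenic sequence, with differences between 45.1 and 49.8 points. In an intron of Slc26a8, which encodes an anion transporter, the levels were 17.2% and 15.8% in wild type and 70.2% and 54.8% in Idh2 R140Q. In an intron of Dab1, an adaptor of reelin signalling, they were 13.5% and 18.4% against 64.1% and 59.1%. The intergenic region nearest to Aqp9, an aquaporin gene, stood at 8.60% and 20.6% against 53.8% and 70.3%. The others were intergenic regions nearest to Eef1d, F930017D23Rik and Il17d and an exon of Msl3l2. At all 14 rises the groups did not overlap, which the rule for naming them required. None of the 30 named regions was called by limma (adjusted p between 0.0566 and 0.250) or without wild type library 1, wild type library 2 or Idh2 R140Q library 1.

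**Figure D3:**
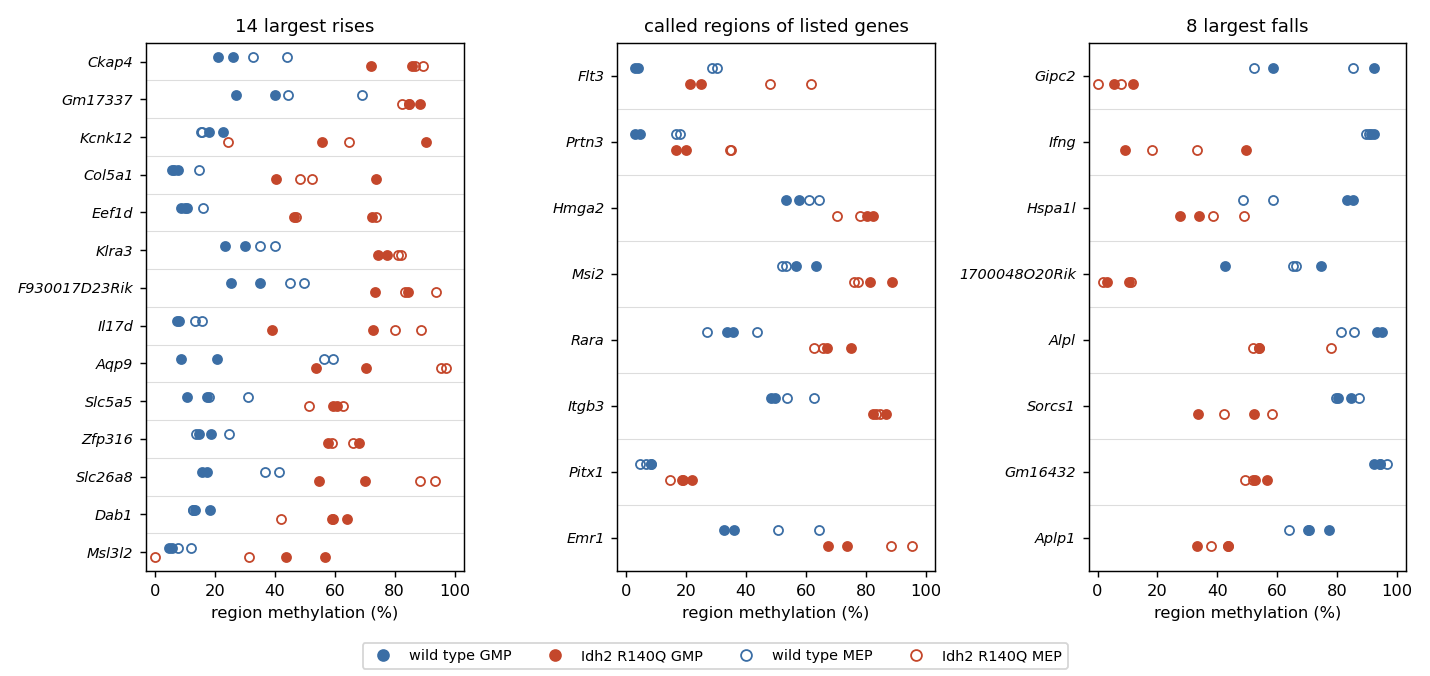
Methylation (x axis, %) of the named regions, 1 row per region, in the 2 libraries of each group, with wild type in blue, Idh2 R140Q in red, GMP filled and MEP open. Among calls without overlap, the panels hold the 14 largest rises (with the listed gene Klra3), the 8 further called regions of listed genes and the 8 largest falls. At each named region the filled red and blue points do not overlap, and at 13 of the 14 largest rises the open points are separated the same way.

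Genes of the granulocyte and macrophage lineage were examined through a list of 55 genes. Of its 48 regions in promoters or gene bodies, 3 were called higher and 0 lower by the quasi-binomial model (121 and 12 of all 25441 such regions), and both mutant libraries lay above both wild type libraries at 41.7% of them and below at 2.08% (28.4% and 8.25% of all such regions). The called regions lay in Prtn3, Rara and Emr1. Prtn3, which encodes the neutrophil granule protease proteinase 3, had a region of 6 CpGs at 2.90% and 4.72% in wild type GMP and 16.7% and 20% in Idh2 R140Q GMP (adjusted p = 0.0478). This region lies in the 3′ part of the gene, 711 bp from the start of an alternative transcript and 8018 bp from the outermost start site. At the outermost start the 21 CpGs were nearly unmethylated, at 0.910% and 0.0730% in wild type and 0.518% and 0.648% in Idh2 R140Q.

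Emr1, which encodes the macrophage marker F4/80, stood at 32.7% and 35.9% against 67.5% and 73.7% over 3 CpGs within 1 kb of its start, a difference of 36.3 points (adjusted p = 0.0344). The Emr1 level weights its CpGs by their reads. The third CpG differed less, at 24.5% and 22.7% against 37.5% and 34.6%. It held 106 and 66 reads in wild type and 16 and 26 in Idh2 R140Q. The other CpGs had 12 reads each in Idh2 R140Q library 1. In an intron of Rara, the retinoic acid receptor alpha, the levels were 35.6% and 33.7% against 75.1% and 66.9%. No called region of this list overlapped between the groups, which the rule for calling regions itself favours. At the promoter level 2 of 15 promoters of the list were called higher and 0 lower, where 20 of all 10889 promoters (0.184%) were called higher and 6 (0.0551%) lower, 0.239% in all. They were the Emr1 promoter, with the same 3 CpGs, and that of Csf2ra, the alpha chain of the receptor for granulocyte-macrophage colony-stimulating factor. The 10 CpGs of the Csf2ra promoter stood at 11.3% and 8.96% in wild type GMP and 39.4% and 37.0% in Idh2 R140Q GMP (adjusted p = 0.0476). The median difference of the list's promoters was 0.225 points, against 0.562 points over all promoters. Both mutant libraries lay above both wild type libraries at 6 of the 15 promoters and below at 1 (3286 and 811 of all 10889). The promoter below was that of Nab2, at 80.7% and 61.2% in wild type GMP and 41.6% and 57.3% in Idh2 R140Q GMP (adjusted p = 0.220 in the quasi-binomial model). The promoter of Cebpa, the gene of a main regulator of granulocyte formation, was below 1% in all 4 libraries.

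Stem and early progenitor genes had 3 of 132 regions called higher and 0 lower, with 29.5% above and 8.33% below in both mutant libraries, and 0 of 27 promoters called. Over all 25441 such regions the shares were 28.4% and 8.25%, with 121 called higher and 12 lower. In an intron of Flt3, the receptor tyrosine kinase of early lymphoid and myeloid progenitors, the levels were 3.85% and 2.82% in wild type GMP and 24.8% and 21.3% in Idh2 R140Q GMP (adjusted p = 0.0232). In the printed Flt3 sequence the middle CpG stood at 5.66% and 5.13% against 38.8% and 51.9%, while the last one stood at 0% and 0% against 4.85% and 3.70%. An intron of Hmga2, a chromatin architectural protein, stood at 57.8% and 53.4% against 82.2% and 80.3%, and an intron of Msi2, an RNA-binding protein of stem cells, at 56.6% and 63.2% against 81.5% and 88.8%.

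The counts of the next lists stand beside the same 121 called higher and 12 called lower of 25441 regions. In the erythroid and megakaryocyte list 1 of 57 regions was called higher, a coding exon of the platelet integrin gene Itgb3 (48.3% and 49.6% against 86.8% and 82.3%), and 0 were called lower. None of its 17 promoters was called; that of Itga2b, the partner integrin chain, stood at 42.6% and 28.1% in wild type and 8.43% and 16.0% in Idh2 R140Q (adjusted p = 0.0949). Of 43 T and natural killer cell regions 1 was called higher, the Klra3 promoter, and of 22 B cell regions 0 were called. Among 295 regions of developmental transcription factors 1 was called higher, a coding exon of the homeobox gene Pitx1 (8.28% and 8.13% against 22.1% and 18.9%). No region was called in the lists of DNA methylation machinery (67 regions), tumour suppressors (106), imprinted genes (43) and germline genes (30), and none of their 23, 34, 17 and 15 promoters. At an unadjusted p under 0.05 the quasi-binomial model gave 10, 10, 8 and 6 regions of these 4 lists, and 0 of the B cell list, beside 3919 of all 25441. The Tet2 promoter stood below 1% in all 4 libraries, and that of Tet3 at 5.58% and 5.88% against 11.9% and 9.47% (adjusted p = 0.159). Among imprinted genes, the Airn promoter stood at 25.8% and 13.4% against 36.9% and 52.0% (adjusted p = 0.195).

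The other called promoters were not on the lists and are named after their values were seen. The 25 CpGs at a start site of Cbfa2t3, which encodes a transcriptional corepressor of blood progenitors, stood at 3.85% and 4.44% in wild type and 15.9% and 18.3% in Idh2 R140Q, a difference of 12.9 points (adjusted p = 0.0121). The 14 CpGs of Zfp423 stood at 22.3% and 15.3% against 49.7% and 48.8%, and the 17 CpGs of Sept9, a septin gene, at 15.3% and 16.0% against 43.5% and 34.2%. Among the 6 called falls, the 16 CpGs of the Eps15 promoter stood at 15.2% and 15.2% against 0.774% and 4.15%. Of the called regions outside promoters, one 31378 bp from the start of Myb, a transcription factor of early blood progenitors, stood at 10.1% and 7.05% against 37.4% and 47.4%. A coding exon of Fzd5, a Wnt receptor gene, had 17 CpGs at 26.0% and 31.8% against 59.2% and 64.5%. In Nfix, which encodes a transcription factor, a coding exon stood at 10.3% and 16.8% against 46.5% and 64.5% and an intron at 39.3% and 31.7% against 65.4% and 66.4%.

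The share of regions called higher varied with the wild type GMP level. These classes were set on the wild type GMP libraries of the comparison, so noise in them enters both the class and the difference. In the class above 80% many regions are too near full methylation to rise by 10 points. Below 10% it was 48 of 15203 regions (0.316%), between 10% and 20% 24 of 1088 (2.21%), between 20% and 40% 45 of 1191 (3.78%), between 40% and 60% 28 of 1089 (2.57%), between 60% and 80% 26 of 2519 (1.03%), and above 80% 1 of 14065 (0.00711%). Promoters held 25.6% of the rises and 42.8% of all regions, while introns held 28.5% and 17.2%. Most promoter regions are unmethylated in these cells, and the shares were also taken within the class of 20% to 80% in wild type MEP. There, 2.64% of promoter regions, 2.67% of coding exon regions, 2.47% of intron regions and 1.44% of intergenic regions were called higher, against 2.06% of the whole class. Below 20%, 0.132% of promoter regions and 1.43% of intron regions were called higher. These shares describe regions of the same 4 libraries and were not tested.

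Short motifs were counted in the 1 kb windows of the rises on both strands, as a description. TTGCNNAA, the core bound by C/EBP factors, was in 36.0% of the 172 windows and in 28.4% of all windows; within the class of 20% to 80% the shares were 42.9% and 30.9%. GAGGAAGT of PU.1 was in 8.72% against 6.10%, and in 8.04% against 6.998% within that class. TGTGGTTT of RUNX factors was in 7.56% against 5.02%, and in 8.93% against 6.94% within it. AGATAAG of GATA factors was in 12.8% against 8.64%, and in 13.4% against 11.4% within it. TGANTCA of AP-1 was in 19.8% against 18.6%, but within the class its share was lower in the rises, 18.8% against 21.7%.

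Of the 25 falls, 13 lay in intergenic sequence and 15 stood at 80% or more in wild type GMP, as did 14065 of all 35155 regions. The share called lower there was 0.107%. It was 0.276% between 10% and 20% (3 regions), and between 0.0840% and 0.184% in the classes from 20% to 80%. A region below 10% cannot fall by 10 points, and these classes too were set on the compared wild type GMP libraries. The largest among calls without overlap, nearest to Gipc2, a scaffold protein gene, stood at 58.5% and 92.2% in wild type and 5.33% and 11.8% in Idh2 R140Q, so the 2 wild type libraries were themselves far apart. The region 188576 bp from the start of Ifng, the gene of interferon gamma, stood at 92.4% and 91.3% against 9.09% and 49.4%, the last values resting on 11 and 29 reads per CpG. A coding exon of Hspa1l, a heat shock protein gene with near-identical neighbours, stood at 83.3% and 85.2% against 27.4% and 33.8%. The Alpl intron stood at 93.3% and 94.9% against 53.8% and 53.8%, and a coding exon of Aplp1 at 77.2% and 70.2% against 33.1% and 43.7%. The 1700048O20Rik promoter stood at 74.7% and 42.6% against 3.19% and 10.7%. The other large falls were intergenic, nearest to Sorcs1 and Gm16432. The Sorcs1 region stood at 80.3% and 84.5% against 33.6% and 52.3%, a difference of -39.46 points (adjusted p = 0.0462). It became -0.616 points (adjusted p = 0.824) when each CpG needed 20 reads. The difference is thus seen only when CpGs under that depth are included. Why was not tested, and the libraries differed in reads on this region, from 157 to 1662. Whether sequence differences between the mice touch single CpGs was not tested.

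MEP of the same genotypes, which did not enter the comparison of the means, had levels at these regions that differed the same way. At the 172 rises, the median level was 37.4% in wild type MEP and 67.0% in Idh2 R140Q MEP, and both mutant MEP libraries lay above both wild type MEP libraries at 169 of them (98.3%, against 22.2% of all regions). At the 25 falls they lay below at 24 (96%, against 10.9% of all). The titles of the GMP and MEP libraries share replicate labels. Each Idh2 R140Q GMP library correlated more with the MEP library of its own number than with the other Idh2 R140Q GMP library. The values were r = 0.989 and 0.985 against 0.983, over 34710 regions. Idh2 R140Q GMP library 2 correlated as much with wild type GMP library 1 (r = 0.98455) as with the MEP library of its own number (r = 0.98451). The MEP libraries also took part in estimating the spread. A test of whether the Idh2 R140Q difference itself differed between GMP and MEP called 0 regions in the quasi-binomial model (1433 at an unadjusted p under 0.05), and also 0 by limma (1157) and by edgeR's quasi-likelihood test (832). It called 0 regions (1855) too with the GMP and MEP libraries of one genotype and number as a block, a fit added after seeing the data.

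Dnmt3a knockout libraries carry no mutant Idh2 and had Y reads between 203 and 303 per 1000000 autosomal reads, above the wild type libraries as the Idh2 R140Q libraries were. Their comparison with wild type GMP would share its control libraries, so levels are given side by side. At the 172 rises their median levels were 38.0% in GMP and 41.8% in MEP, against 27.3% in wild type GMP and 62.1% in Idh2 R140Q GMP. Both Idh2 R140Q MEP libraries lay above both knockout MEP libraries at 120 of the 172 rises (69.8%, against 16.1% of all regions) and below at 11, with a median difference of 14.9 points. At the 25 falls the knockouts stood at 54.9% in GMP and 50.4% in MEP, beside 50.2% in Idh2 R140Q GMP and 83.1% in wild type GMP. There, Idh2 R140Q MEP lay below knockout MEP at 9 of 25 (36%, against 20.3% of all regions), with a median difference of -0.918 points. An example is the start site of Smchd1, a chromatin protein gene, named after its values were seen, which stood at 13.2% and 12.2% in wild type GMP, 3.18% and 2.22% in Idh2 R140Q GMP and 2.45% and 4.69% in knockout GMP. Loss of Dnmt3a and the shared sex chromosome content cannot be told apart in the knockout libraries.

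**Figure D4:**
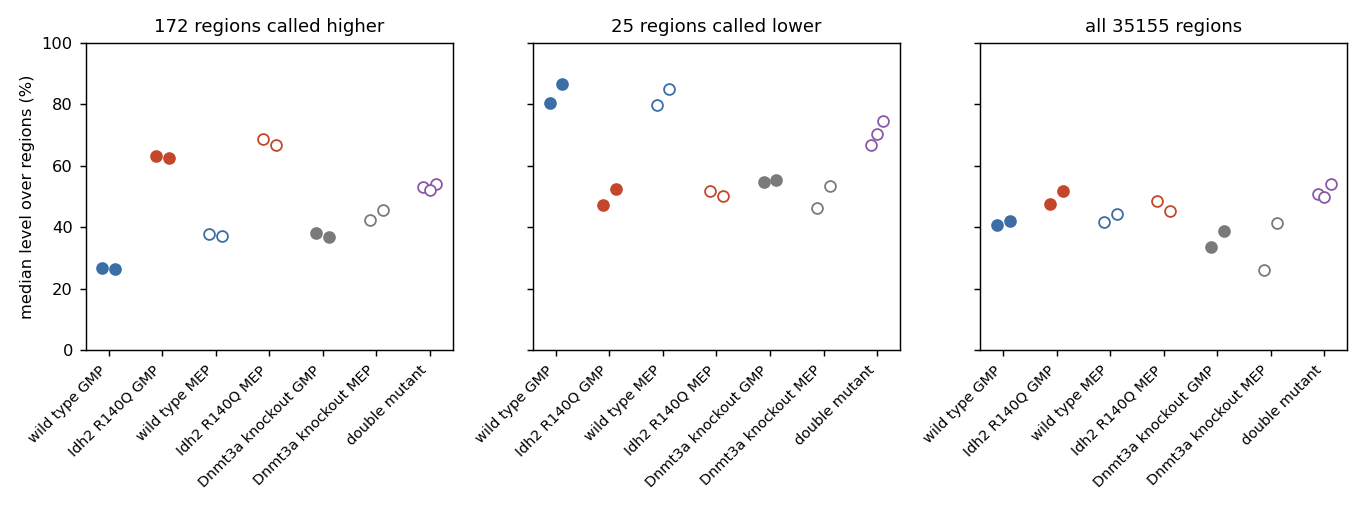
Median methylation (y axis, %) over the 172 called rises, the 25 called falls and all 35155 regions, with 1 point per library and GMP filled. The rises are higher in the Idh2 R140Q libraries of both cell types than in all wild type and knockout libraries, while at the falls the knockout libraries lie near the Idh2 R140Q libraries. The double mutant libraries, of progenitors with Dnmt3a knockout and mutant Idh2, lie between wild type and Idh2 R140Q in both. They stand between 52.3% and 54.2% at the rises and between 66.7% and 74.5% at the falls.

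Regions that differ between GMP and MEP in Dnmt3a knockout were examined as a set. In 60 regions both Dnmt3a knockout GMP libraries lay at least 20 points under both knockout MEP libraries, a choice made without the 4 compared libraries; only 4 regions met the reverse rule. At these 60 regions the median level was 41.9% and 44.8% in wild type GMP and 61.1% and 65.7% in Idh2 R140Q GMP, beside 64.6% and 59.4% in wild type MEP. Not all of these regions were lower in GMP than in MEP in wild type. An intron of Tbxas1 stood at 88.9% and 89.1% in wild type GMP against 62.6% and 64.9% in wild type MEP. Over the 60 regions the median difference between Idh2 R140Q and wild type GMP was 18.4 points. Both mutant libraries lay above both wild type libraries at 45 of them and below at 2, and 11 were called higher (18.3%, against 0.489% of all regions) and 0 lower. Since these regions are mostly of intermediate level, the 51 of them between 20% and 80% in wild type MEP were set beside their class: 80.4% lay above in both mutant libraries and 21.6% were called higher, against 40.3% and 2.06% of the class, and the medians were 19.9 and 4.69 points. The knockout libraries helped to estimate the spread used for the calls, but not the differences.

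Several named genes belong to this group. Emr1 stood at 64.5% and 50.7% in wild type MEP, above its 32.7% and 35.9% in wild type GMP, and Slc26a8 at 41.5% and 36.6%. Itgb3 stood at 62.5% and 53.5% in wild type MEP. A region 8765 bp from the start of Sdad1 stood at 6.95% and 5.77% in wild type GMP, 54.5% and 40.2% in wild type MEP and 35.8% and 32.6% in Idh2 R140Q GMP. Over the 60 regions the medians in Idh2 R140Q MEP were 86.7% and 87.5%, above those in Idh2 R140Q GMP. In the Dnmt3a knockout libraries, which carry no mutant Idh2, the medians were 86.2% and 88.6% in MEP and 44.4% and 50.5% in GMP. The choice of the regions required a gap between these knockout cell types. Knockout MEP thus also stood above wild type MEP here, as Idh2 R140Q MEP did. Flt3 and Prtn3, which are not in the group of 60, also stood lower in wild type GMP than in wild type MEP (30.3% and 28.5% in MEP for Flt3, 17.9% and 16.6% for Prtn3), and lower in Idh2 R140Q GMP than in Idh2 R140Q MEP (61.7% and 48.0% for Flt3, 34.8% and 34.8% for Prtn3).

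**Figure D5:**
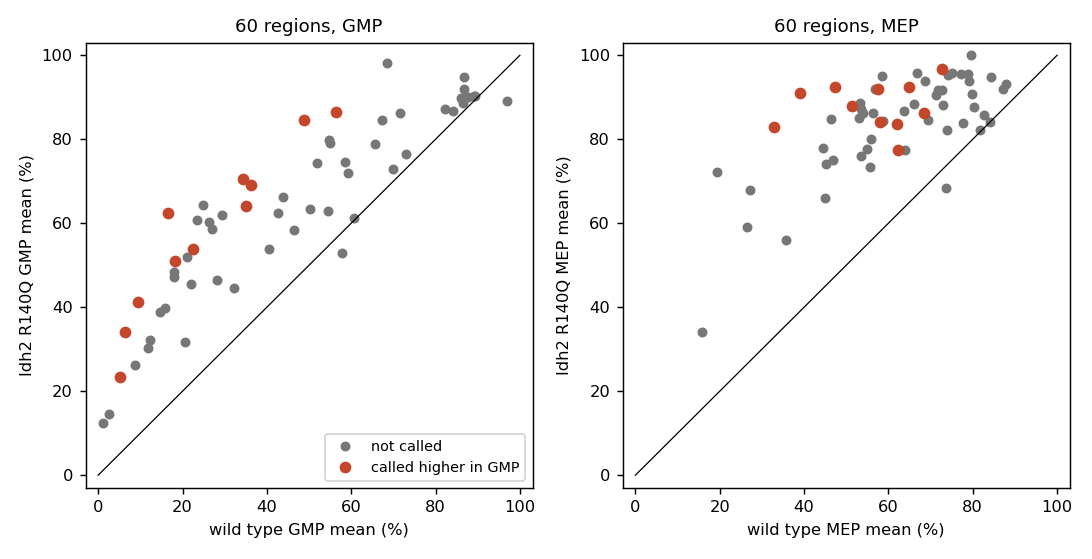
Mean methylation of the 60 regions that were lower in Dnmt3a knockout GMP than in knockout MEP, in wild type (x axis, %) and Idh2 R140Q (y axis, %), for GMP and for MEP, with the 11 regions called higher in Idh2 R140Q GMP in red. Most points lie above the diagonal in both cell types.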

How the data were processed

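The authors' deposited files give 2 counts per cytosine of a CpG, methylated reads and all reads, laid out as BSMAP's methratio script writes them; the submitters' processing notes name BSMAP 2.74 and mm9. The deposited fraction is the ratio of those counts and was only checked against them. Counts stop at 65535. Duplicate removal, trimming and a conversion control: not given in the sources used here. All 16609811 positions checked fell on CG of NCBIM37, the mm9 assembly, and gencode vM1 placed the regions.

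Both strands of a CpG were added. Autosomal CpGs needed 10 reads in each of the 4 libraries. Regions were 1 kb windows and promoters all CpGs within 1 kb of a start site, each with at least 3 CpGs. For a gene with several start sites the one with most CpGs was used. A level is methylated reads over all reads. Other libraries entered a region's fit where they covered it (all of them at 98.1% of regions). The quasi-binomial logistic model had 1 mean for each of 7 groups. Its dispersion was squeezed across regions (3.23 prior degrees of freedom, median 2.45) and not under 1, and F test p-values had Benjamini-Hochberg adjustment, regions and promoters separately. They measure the spread between these libraries. Named regions were the 14 largest rises and 8 largest falls among calls whose libraries did not overlap, at most 1 per 10 kb, and called regions and promoters of 10 gene lists. The comparison, lists and rules were chosen with earlier results of these data known. Alternatives were 20 reads, 500 bp windows, 25 points, limma, edgeR, the 4 libraries alone, a replicate block and leaving out each library. Software was R 4.3.3 with limma 3.58.1 and edgeR 4.0.16, and Python 3.11.15 with pandas 2.3.3, numpy 2.4.6, scipy 1.17.1 and matplotlib 3.10.9.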

Additional observations from a re-analysis of the deposited data

Results flagged for a closer look

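Reads on the Y chromosome, which the comparison of autosomal CpGs did not use, came to 198.8 per 1000000 autosomal reads in Idh2 R140Q GMP library 1 and 265.8 in library 2, above 56.0 and 57.5 in the wild type GMP libraries. The labels give no sex, and the part of sex chromosome content in the autosomal differences was not tested within these 4 libraries.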

How the results depend on the processing

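Against 197 called regions (172 higher, 25 lower), a minimum of 20 reads gave 93 (74 higher, 19 lower) of 19008 tested, windows of 500 bp 99 (88 and 11), a difference of 25 points 116 (101 and 15), and edgeR's likelihood ratio test, added after seeing the data, 586 (512 and 74), which include all 197. limma, edgeR's quasi-likelihood test and the 4 libraries alone gave 0 higher and 0 lower (4280, 3149 and 3083 at an unadjusted p under 0.05). Leaving out 1 library gave 0 to 230 regions (0 to 173 higher, 0 to 57 lower); 113 of the 230 calls without Idh2 R140Q library 2 were among the 197. For the 26 called promoters the counts were 15 at 20 reads, 12 at 25 points, 81 with the likelihood ratio test, 0 with limma (1444 at an unadjusted p under 0.05), 0 with edgeR's quasi-likelihood test (866) and 0 with the 4 libraries alone (1053), and 0 to 102 with 1 library left out. No named region changed direction where its window was kept (all 30, or 13 at 20 reads). At 20 reads 10 of the 13 were still called; Sorcs1 (-0.616 points, from -39.46), Pitx1 (8.85 points) and Zfp316 (43.2 points, adjusted p = 0.0686) were not. Of the 30, 18 were still called without Idh2 R140Q library 2 and 18 with the block below.

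Replicate numbers did not pair the wild type with the Idh2 R140Q GMP libraries: the deviations of same-numbered libraries correlated at -0.0255 over regions, in 2 pairs. Between the GMP and MEP libraries of one genotype they correlated at 0.332 in wild type, 0.461 in Idh2 R140Q and 0.0312 in Dnmt3a knockout. With the replicate block 116 regions (100 higher, 16 lower; 105 of them among the 197) and 9 promoters were called.

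The difference in mean level, 1.68 points, became -2.795 points as methylated reads over all reads and -1.279 points when CpGs over 1000 reads were also left out, an alternative added after seeing the data; the cause was not tested. The class above 80% ranged from -0.566 to 1.29 points with 1 library left out. A filter on cytosines that can be C-to-T changes was planned and not run, since the columns it needs hold no values here. Regions held 4 CpGs in the median, read 28 to 41 times, which limits what can be seen of differences near 10 points.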
